A study of Homo sapiens with 6 samples.

Results

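Fatty acid synthesis, elongation and desaturation is represented here by 10 genes, chosen by symbol from the 34371 rows of the count table: ACLY, ME1, ACACA, FASN, ELOVL1, ELOVL5, ELOVL6, SCD, FADS1 and FADS2. Each symbol matched 1 row, and 9 of the 10 passed the filter on low counts. The libraries came from ME-1 cells, an established human line of acute myeloid leukaemia with the fusion gene CBFB::MYH11; the name is unrelated to the gene ME1. Of 6 libraries of polyadenylated RNA, 3 were from cells given an empty vector (the controls) and 3 from cells given a vector that overexpresses SPNS2, a transporter of sphingosine-1-phosphate. All cells had been selected for the vector before extraction. The promoter of the vector is not given in the sources used here, and the labels do not say whether libraries of a group were separate cultures, so p-values measure the spread between these libraries, which may be technical.

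The pathway makes long-chain fatty acids from citrate. ATP citrate lyase releases acetyl-CoA in the cytosol, acetyl-CoA carboxylase turns it into malonyl-CoA, and fatty acid synthase builds palmitate with NADPH, some of which malic enzyme supplies. Elongases of the ELOVL family lengthen the chains, and desaturases add double bonds. SREBP transcription factors and LXR nuclear receptors are known to control many of these genes, and leukaemia cells, like other dividing cells, use the products for membranes.

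Library totals ran from 28605187 to 38489992 counts. The vector SPNS2 transcript, listed in a row of its own, was at 764 to 789 CPM (counts per 1000000 of the library, after TMM scaling) in the SPNS2 libraries and at 0 to 0.233 CPM in the empty vector libraries, so each library matched its label. Of the 10 haematopoietic and myeloid markers, 8 were above 1 CPM, led by MPO at 25135 to 26543 CPM, while ITGAM was under 1 CPM and CD14 at or near 0. Of the 9 tested, 3 rose and 2 fell, several by more than most members: on the log2 scale KIT, PTPRC and RUNX1 rose by 0.55, 0.26 and 0.13, CD33 fell by 0.71 (control mean 37.4 ± 0.0932 CPM, SPNS2 mean 22.9 ± 1.12 CPM; SD, n = 3 each) and CD34 by 0.25. Over all tested features edgeR called 11.9% higher and 12.6% lower. The part of these markers in the results was not tested. Of 11 markers of adipocytes, liver and epithelium, 10 were under 1 CPM, 4 of them at 0, and the list summed to 120 to 128 CPM with the empty vector and 142 to 145 CPM with SPNS2. That sum was nearly all EPCAM, which rose from 119 to 127 CPM to 140.5 to 143 CPM (log2 change 0.19; edgeR adjusted p = 0.00137). The keratin and cadherin rows of that list were at 0 to 0.341 CPM, and the part of EPCAM in the results below was not tested. Of 10 lymphoid and stromal markers, 8 were under 1 CPM, and the list summed to 6.33 to 6.80 CPM and 6.29 to 7.03 CPM in the respective groups. Within it CD3E rose from a mean of 0.494 to 0.892 CPM (edgeR adjusted p = 0.0298); without control 1 or 3, SPNS2 library 1, 2 or 3, with DESeq2 or with the replicate block it did not pass (adjusted p = 0.109, 0.0723, 0.0735, 0.0875, 0.0767, 0.160 and 0.0574).

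Most members were slightly lower in the SPNS2 libraries and none rose. Of the 9 tested, 6 fell (ACLY, ACACA, FASN, ELOVL5, ELOVL6 and FADS1) and 3 did not pass an adjusted p of 0.05 (SCD, ELOVL1 and FADS2). Over all 13308 tested features, 12.6% were called lower and 11.9% higher by edgeR's quasi-likelihood test; with library totals in place of TMM that order turned, to 1492 lower and 1725 higher. Among the 7079 features at a mean of at least 20 CPM, as all 9 tested members were, 18.3% were called lower and 13.6% higher. The members' median log2 fold change was -0.15, beside 0.0026 over all tested features. No member was higher at an unadjusted p under 0.05, and none was called higher by DESeq2 or limma voom. DESeq2 called 4 members lower, without ACACA (adjusted p = 0.0541) and ELOVL5 (0.0512). It also called fewer features over the whole table, 1285 lower and 1067 higher, where edgeR called 1683 and 1580. In bulk RNA, fewer cells that express a gene and less RNA per cell cannot be told apart.

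**Figure D1:**
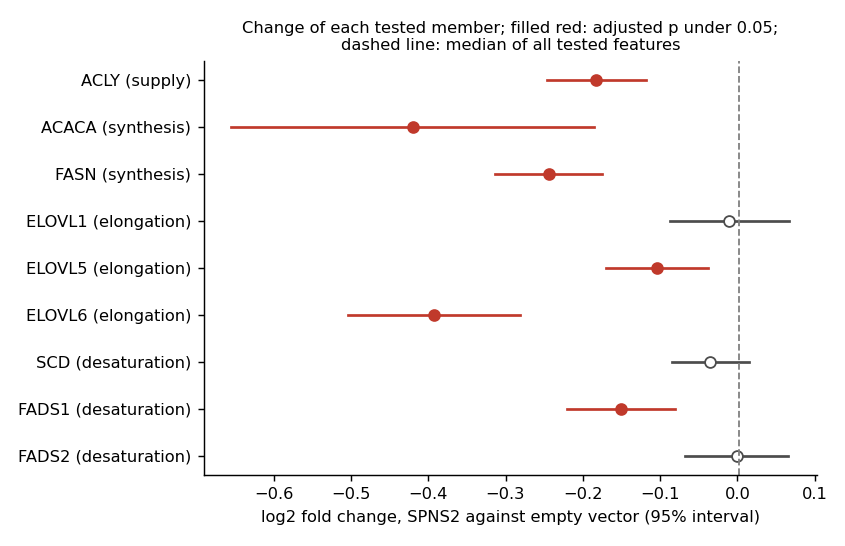
Log2 fold change of each tested member, SPNS2 against empty vector, with its 95% interval; filled red points passed an adjusted p of 0.05 and open points did not. The 6 red points lie between -0.10 and -0.42, and the intervals of SCD, ELOVL1 and FADS2 include 0.

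CCAAT and GC boxes were found near the starts of members that fell and of members that did not pass. RefSeq promoter windows (GRCh38.p14, 250 bases before to 50 after a start) were found for 9 members in 13 windows; FASN had none. The motifs searched on both strands were the CCAAT box (CCAAT, bound by NF-Y), the GC box (GGGCGG, bound by Sp1 factors), the E-box (CACGTG) and a sterol regulatory element (TCACNCCAC). CCAAT was in 8 of the 13 windows (6 of the 9 members), against 34.6% of all 35116 promoter windows. The GC box was in 10 of the 13 windows (8 members), against 45%. The E-box was in 1 window, that of ELOVL5, against 7.26%, and the sterol element in 0, against 1.13%. The 35116 windows were not limited to genes expressed in these cells, so these shares are no test of enrichment in the pathway. Windows of 1 gene can share bases, as those of ACLY and FADS2 do, and a shared box then counts in both. A match is a description of the letters and no evidence of binding. Shown are the stretches of ACLY and ELOVL6, which fell, and of SCD, upstream of the start and outside every exon of GENCODE 29, with CCAAT and GC boxes of either strand in capitals. They are chr17:41919023-41919272 (minus strand) for ACLY, chr4:110198677-110198841 (minus strand) for ELOVL6 and chr10:100346983-100347123 (plus strand) for SCD.
ACLY: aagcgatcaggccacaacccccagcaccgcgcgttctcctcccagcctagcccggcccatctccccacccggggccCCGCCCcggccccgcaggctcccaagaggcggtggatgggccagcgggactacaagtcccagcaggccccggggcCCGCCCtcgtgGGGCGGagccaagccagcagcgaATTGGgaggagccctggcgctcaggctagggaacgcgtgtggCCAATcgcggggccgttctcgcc
ELOVL6: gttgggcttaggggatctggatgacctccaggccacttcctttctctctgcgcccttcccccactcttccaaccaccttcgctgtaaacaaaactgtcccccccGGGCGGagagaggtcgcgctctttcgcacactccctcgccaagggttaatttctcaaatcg
SCD: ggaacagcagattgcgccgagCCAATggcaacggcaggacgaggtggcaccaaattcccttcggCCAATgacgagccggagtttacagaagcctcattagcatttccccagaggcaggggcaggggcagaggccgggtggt
The ACLY stretch held 2 CCAAT boxes, beginning 65 and 23 bases before the start, and 3 GC boxes. That of ELOVL6 held 1 GC box, 122 bases before the start, and no CCAAT box. That of SCD held 2 CCAAT boxes, 229 and 186 bases before the start, and no GC box. Nearer the start than the printed stretch, the SCD window held 2 GC boxes, beginning 33 and 11 bases before the start.

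Of the genes that supply the pathway, ACLY fell and ME1 was almost undetected. ACLY (ENSG00000131473.17), ATP citrate lyase, was at 345, 331 and 326 CPM in the controls and at 294, 302 and 288 CPM in the SPNS2 libraries. Every SPNS2 library lay below every control. The mean went from 334 ± 9.89 to 294 ± 6.90 CPM (SD, n = 3 each), 11.9% lower in the fit (log2 change -0.18 with SE 0.0292; edgeR adjusted p = 0.00113). ME1 (ENSG00000065833.9), the cytosolic malic enzyme that makes NADPH, had 3 counts over the empty vector libraries and 1 count over the SPNS2 libraries. With so few counts ME1 did not pass the filter. Exact 95% counting intervals reached 0.0883 and 0.0571 CPM in the respective groups, and a difference was not detectable at this depth. Such intervals cover counting error only.

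Both enzymes of palmitate synthesis were called lower, with unequal replicate spread. FASN (ENSG00000169710.9), fatty acid synthase, was at 724, 685 and 683 CPM in the controls and at 577, 612 and 578 CPM with SPNS2. The groups did not overlap, and the gap between the lowest control and the highest SPNS2 library was larger than the SD of either group. The mean went from 697 ± 23.5 to 589 ± 19.9 CPM (SD, n = 3 each), 15.6% lower (log2 change -0.24 with SE 0.0313; edgeR adjusted p = 0.000291). ACACA (ENSG00000278540.5), acetyl-CoA carboxylase 1, the rate-limiting enzyme, was at 43.3, 32.6 and 46.8 CPM in the controls and at 31.2, 32.8 and 28.1 CPM with SPNS2. Here the groups overlapped, because control 2 lay within the SPNS2 range. Its mean went from 40.9 ± 7.40 to 30.7 ± 2.35 CPM (n = 3 each, ± SD), with a log2 change of -0.42 (SE 0.107, adjusted p = 0.0149). This is the largest fall among the members and also the least certain in size, with a 95% interval of -0.65 to -0.19. The call was lost without control 3 (-0.32, adjusted p = 0.0645) or SPNS2 library 3 (-0.36, adjusted p = 0.0684) and with DESeq2 (adjusted p = 0.0541).

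The 3 elongases differed in what they showed. ELOVL6 (ENSG00000170522.10), which extends palmitate to stearate, was at 30.0, 31.3 and 28.9 CPM in the controls and at 24.0, 22.0 and 22.7 CPM with SPNS2. All SPNS2 values lay below all control values, and the mean went from 30.1 ± 1.22 to 22.9 ± 1.04 CPM (SD, n = 3 each). This was a fall of 23.8% (log2 change -0.39 with SE 0.0507; edgeR adjusted p = 0.000302), and its promoter stretch is printed above. ELOVL5 (ENSG00000012660.14), which elongates polyunsaturated chains, was at 103, 106 and 103 CPM in the controls and at 98.9, 94.8 and 96.6 CPM with SPNS2. The groups did not overlap, but the fall was 6.93% (log2 change -0.10 with SE 0.0300; adjusted p = 0.0274). ELOVL5 lost its call without control 2 (adjusted p = 0.103) or SPNS2 library 2 (0.109) or 3 (0.0737), with DESeq2 (0.0512) and with the replicate number as a block (0.0656). ELOVL1 (ENSG00000066322.15), which makes very long saturated chains, was at 93.4, 88.2 and 88.0 CPM in the controls and at 87.6, 87.9 and 92.3 CPM with SPNS2. The groups overlapped, and the log2 fold change of -0.010 (95% interval -0.088 to 0.067) did not pass (adjusted p = 0.867).

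**Figure D2:**
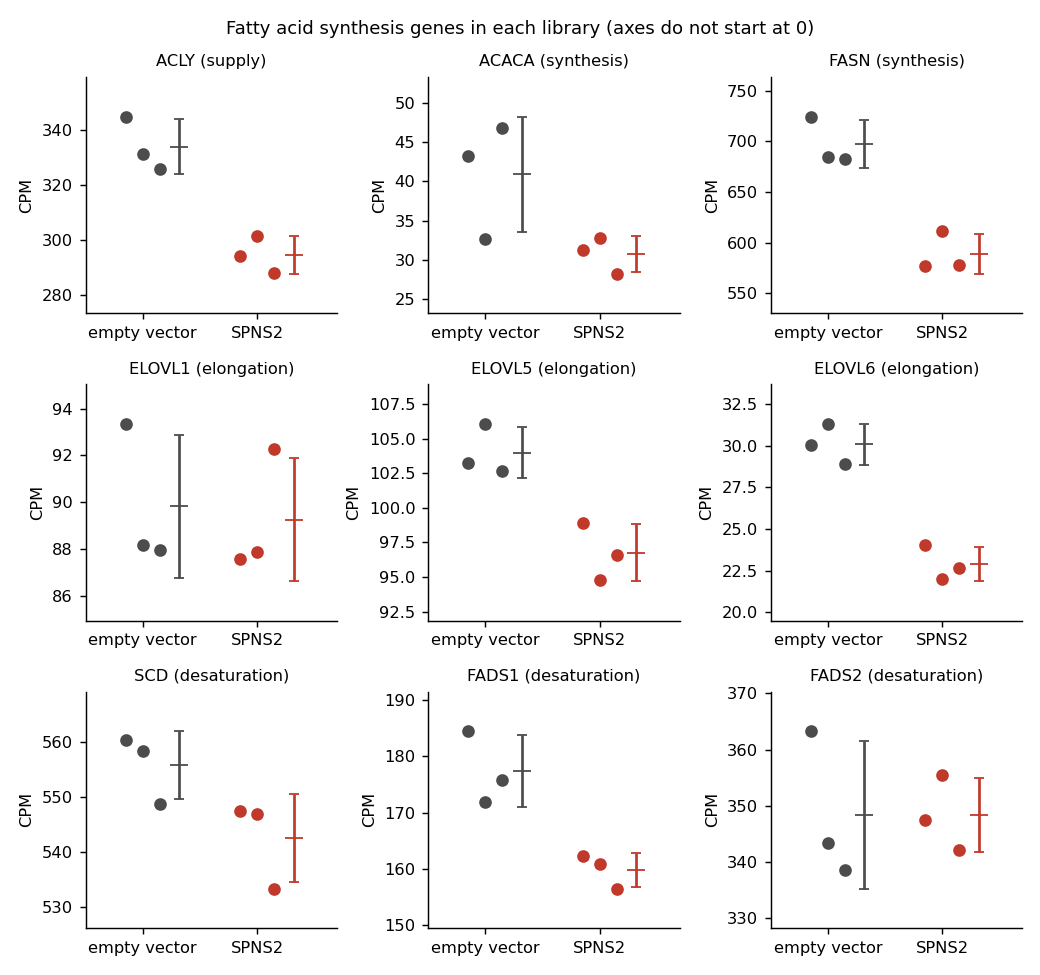
CPM of the 9 tested members in each library; points are libraries, and the bar beside them is the mean with its SD (n = 3 per group). Each panel has its own axis, which does not start at 0. ACLY, FASN, ELOVL5, ELOVL6, SCD and FADS1 show no overlap between groups, while ACACA, ELOVL1 and FADS2 do.

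Of the 3 desaturases only FADS1 passed the test. SCD (ENSG00000099194.6), stearoyl-CoA desaturase, which makes oleate and palmitoleate, was at 560, 558 and 549 CPM in the controls and at 547, 547 and 533 CPM with SPNS2. The groups just missed overlapping, but the log2 fold change was -0.035 (SE 0.0227, adjusted p = 0.303 in edgeR). Its 95% interval of -0.085 to 0.015 allows a fall of up to 5.72%. Groups that did not overlap, with lower SPNS2 values, were found for 6 of the 9 members, against 20.3% of all tested features and 26.7% of those at 20 CPM or more; the opposite order was found for 0 members, against 19.8% of all tested features. FADS1 (ENSG00000149485.19), the delta-5 desaturase of polyunsaturated chains, was at 185, 172 and 176 CPM in the controls and at 162, 161 and 157 CPM with SPNS2. The groups did not overlap, and the mean went from 177 ± 6.47 to 160 ± 3.02 CPM (SD, n = 3 each), 9.92% lower (log2 change -0.15 with SE 0.0319; adjusted p = 0.00573). FADS2 (ENSG00000134824.14), the delta-6 desaturase, was at 363, 343 and 339 CPM in the controls and at 348, 355 and 342 CPM with SPNS2. The groups overlapped, the means were 348 ± 13.1 and 348 ± 6.65 CPM (SD, n = 3 each), and the log2 fold change was within -0.068 to 0.066 (95% interval; adjusted p = 0.990).

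FADS1 and FADS2 are neighbours read from opposite strands. In RefSeq the start of FADS1 lies 800 and 599 bases beyond the 2 FADS2 starts on the FADS2 strand, so each gene is transcribed across the start of the other. Their GENCODE 29 gene spans, introns included, share 29694 bases, and the overlap of their exons was not computed. The library kit keeps strand, but whether the counting used it is not given in the sources used here. Without strand, reads from stretches where exons of both genes overlap cannot be told apart. Shown are stretches outside every exon of GENCODE 29, with GC boxes in capitals. That of FADS1 lies upstream of its start (chr11:61817198-61817253, minus strand). That of FADS2 lies upstream of the downstream start (chr11:61816154-61816255, plus strand). The other RefSeq FADS2 start, at chr11:61816203, lies inside the FADS2 stretch. The bases from there on, with the GC box, are therefore downstream of that start. The window of that upstream start held 0 CCAAT and 0 GC boxes. The window of the downstream start also held 1 CCAAT box, after the start. Whether these sequences bear on the calls was not tested.
FADS1: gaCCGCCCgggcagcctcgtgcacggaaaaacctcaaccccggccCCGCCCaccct
FADS2: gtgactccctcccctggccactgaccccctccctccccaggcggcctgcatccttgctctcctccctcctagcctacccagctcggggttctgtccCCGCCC
The ratio of FADS2 to FADS1 counts, chosen after the values were seen, was 1.97, 1.998 and 1.92 in the empty vector libraries and 2.14, 2.21 and 2.19 in the SPNS2 libraries. Every SPNS2 library was above every control (log2 change 0.15, two-sided exact permutation p = 0.1). With 3 libraries against 3 this is the smallest p the test can give.

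A ratio of 2 genes within a library does not depend on how libraries are scaled, so the unequal change of the members was also examined as ratios to FASN. All 8 ratios share FASN and are not independent of each other. FADS2 to FASN was 0.502, 0.501 and 0.496 with the empty vector and 0.602, 0.581 and 0.592 with SPNS2. SCD to FASN was 0.774, 0.815 and 0.804 with the empty vector and 0.949, 0.894 and 0.923 with SPNS2. Both ratios were higher in every SPNS2 library, by 0.24 and 0.21 on the log2 scale, so FASN was lower relative to these desaturases. The ratios of ELOVL1 (0.23), ELOVL5 (0.14), FADS1 (0.095) and ACLY (0.062) were also higher in every SPNS2 library; for ELOVL5 the margin was narrow, with 0.154888 in the highest control library and 0.154939 in the lowest SPNS2 library. For these 6 ratios the two-sided exact permutation p was 0.1, the smallest possible, and 0.133 adjusted over the 8. The ratios of ACACA and ELOVL6 to FASN had lower means with SPNS2 (log2 change -0.16 and -0.15), their groups overlapped, and the exact p was 0.5 and 0.2.

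**Figure D3:**
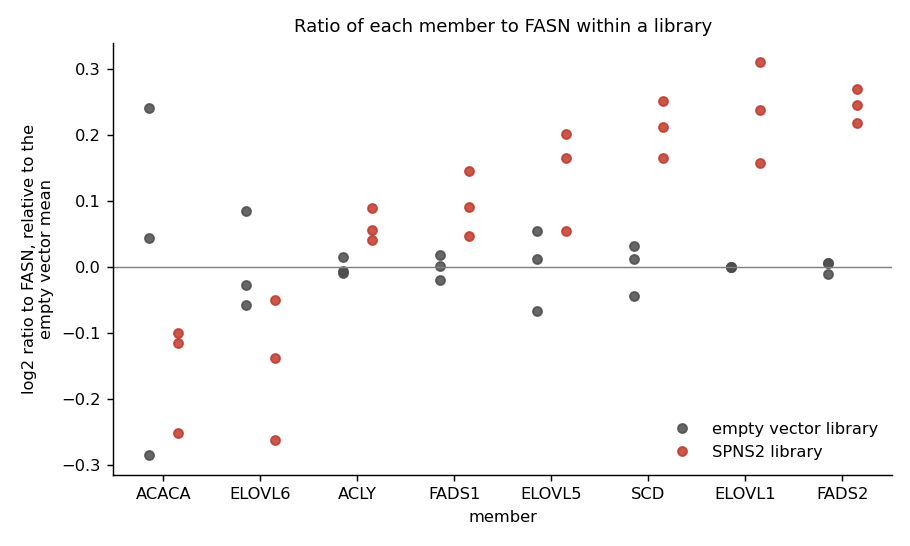
Log2 ratio of each member's counts to those of FASN in the same library, relative to the mean of the empty vector libraries; grey points are empty vector and red points SPNS2 libraries. For 6 members all red points lie above the grey ones, while for ACACA and ELOVL6 the colours overlap.

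Per kilobase of the longest GENCODE 29 transcript, the members spanned a wide range of levels. With the empty vector SCD was highest at 103.7 ± 1.153 CPM per kilobase, followed by FASN (81.4 ± 2.74), ACLY (77.0 ± 2.28) and FADS2 (68.7 ± 2.58; SD, n = 3 each). FASN and ACLY were within 2 SD of each other. ELOVL1 (55.3 ± 1.88), FADS1 (39.2 ± 1.43) and ELOVL5 (33.7 ± 0.595 CPM per kilobase) were in the middle. ELOVL6 (4.66 ± 0.189) and ACACA (4.11 ± 0.743 CPM per kilobase) were lowest among the tested members, and their ranges overlapped. With SPNS2 the levels were 101 for SCD, 68.7 for FASN, 68.7 for FADS2 and 67.9 CPM per kilobase for ACLY, so the last 3 were closer together than their SDs of 1.31 to 2.32. The order rests on the transcript chosen: with the median transcript length FASN was first and SCD seventh with the empty vector. The counts of the 10 members summed to 2338 to 2447 CPM with the empty vector and to 2137 to 2214 CPM with SPNS2, a sum carried mainly by FASN and SCD.

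Of 24 other enzymes of synthesis, elongation and desaturation, 21 were tested, 3 rose, a share near the 11.9% called higher over all features, and 0 fell by edgeR (2 had lower values at an unadjusted p under 0.05, and DESeq2 and limma voom called 0 lower). The median log2 fold change was 0.034. HACD4, a dehydratase of the elongation cycle, rose from 20.2 ± 0.446 to 24.0 ± 0.161 CPM (n = 3 each, ± SD), with a log2 change of 0.25 (adjusted p = 0.00209). CYB5R1, of the cytochrome b5 reductase family, rose by 0.18 and CBR4, a reductase of mitochondrial fatty acid synthesis, by 0.17 on the log2 scale. CBR4 lost its call without control 1 (adjusted p = 0.0645) or SPNS2 library 1, 2 or 3 (0.0656, 0.0575 and 0.0545), and CYB5R1 without control 2 or 3 (0.0782 and 0.0948) or SPNS2 library 1, 2 or 3 (0.0791, 0.0670 and 0.0718). With DESeq2 CBR4 and CYB5R1 did not pass either (adjusted p = 0.0775 and 0.0774). Only 1 gene rose in the list without SPNS2 library 2 or 3 and with DESeq2, and 1 fell without control 3. ACACB, the mitochondrial acetyl-CoA carboxylase, was 0.10 higher on the log2 scale and did not pass (adjusted p = 0.0956). ACSS2, which makes acetyl-CoA from acetate, also had 0.10 (adjusted p = 0.115) and was called without SPNS2 library 1 (0.14, adjusted p = 0.0215).

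Genes that supply citrate, acetyl-CoA and NADPH went both ways. Of 20 tested, 4 fell and 2 rose, with a median log2 fold change of -0.040. Over all tested features 12.6% were called lower and 11.9% higher, and among those at a mean of at least 20 CPM 18.3% and 13.6%. MTHFD1, a folate enzyme that also yields NADPH, fell from 151 ± 7.16 to 133 ± 0.744 CPM (n = 3 each, ± SD), with a log2 change of -0.19 (adjusted p = 0.00299 in edgeR). SLC25A1, the carrier that exports citrate from mitochondria to ACLY, fell by 0.10, and so did PDHA1, a subunit of pyruvate dehydrogenase. ME3, a mitochondrial malic enzyme, rose from 21.2 ± 1.18 to 25.6 ± 1.09 CPM (n = 3 each, ± SD), with a log2 change of 0.27 (adjusted p = 0.00501), and NNT, the mitochondrial transhydrogenase that makes NADPH, rose by 0.098. ME2, another mitochondrial malic enzyme, was more abundant and fell, from 109 ± 2.91 to 101 ± 2.82 CPM (SD, n = 3 each; adjusted p = 0.0348). The call of ME2 was lost without control 2 or 3 (0.118 and 0.102) or SPNS2 library 1 or 3 (0.136 and 0.0872). SLC25A1 lost its call without control 1 or 3 (adjusted p = 0.0559 and 0.0622), SPNS2 library 1 or 2 (0.0973 and 0.0682) or with the replicate block (0.0563). PDHA1 lost it without control 1 or 3 (0.0568 and 0.0594), SPNS2 library 1, 2 or 3 (0.0567, 0.0655 and 0.0717) or with the block (0.0546), and NNT without control 3 or SPNS2 library 1 or 2 (0.0549, 0.0786 and 0.0526). With control 3 or SPNS2 library 1 left out, 1 gene fell, and with SPNS2 library 2 or 3 left out, 2 fell. Only 1 rose without control 3 or SPNS2 library 1 or 2.

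Regulators of the pathway went both ways, by small amounts. Of 28 tested genes, 6 fell and 3 rose, beside 12.6% lower and 11.9% higher over all tested features. Among features at a mean of at least 20 CPM the shares were 18.3% and 13.6%. The median log2 fold change of the 28 genes was -0.027. SREBF1, which encodes the SREBP1 factor of fatty acid genes, had a mean of 95.3 ± 3.67 CPM in the controls and 93.6 ± 1.995 CPM with SPNS2 (SD, n = 3 each), and did not pass (log2 change -0.028; edgeR adjusted p = 0.618). SREBF2, which encodes the factor of cholesterol genes, fell from 343 ± 3.99 to 321 ± 5.21 CPM (log2 change -0.095; adjusted p = 0.0150), and SCAP, the escort of both, fell by 0.13. NR1H2, an LXR receptor, fell by 0.17, MLX, the partner of ChREBP, by 0.12, and MID1IP1, which promotes assembly of acetyl-CoA carboxylase, by 0.12 on the log2 scale. The 3 that rose were NFYB, a subunit of NF-Y (0.15; adjusted p = 0.0307), PRKAG2, a subunit of AMPK (0.15; adjusted p = 0.0176) and MLXIP, another partner of MLX (0.10 on the log2 scale; adjusted p = 0.0299). NFYB did not pass without control 1 or 3 (0.124 and 0.0945), SPNS2 library 1 or 3 (0.127 and 0.104), with DESeq2 (0.0698) or with the block (0.0611). PRKAG2 did not pass without control 1 or 3 (0.0596 and 0.0604), SPNS2 library 3 (0.0735) or with DESeq2 (0.0926), nor MLXIP without control 2 (0.111), SPNS2 library 2 or 3 (0.118 and 0.0784) or with the block (0.0646). INSIG1, which holds SCAP in the endoplasmic reticulum, did not pass (-0.074, adjusted p = 0.0741), nor did the LXR gene NR1H3 (-0.074, adjusted p = 0.537) or MLXIPL, the ChREBP gene (-0.21, adjusted p = 0.657), which was under 1 CPM. SREBF2 lost its call without control 2 or SPNS2 library 1 (adjusted p = 0.0557 and 0.0691), SCAP without SPNS2 library 1 or 3 (0.0700 and 0.0546), NR1H2 without control 2 or SPNS2 library 1 or 3 (0.0533, 0.0691 and 0.0505), MID1IP1 without SPNS2 library 3 (0.0570) and MLX with DESeq2 (0.0529). Without control 2 or SPNS2 library 3, 3 genes fell, and without SPNS2 library 1, 2 fell. Without control 1 or 3, 1 gene rose, and without SPNS2 library 3, 0 rose.

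Genes that use fatty acids were mixed as well, as were all tested features, with 12.6% called lower and 11.9% higher. At a mean of at least 20 CPM those shares were 18.3% and 13.6%. Of 21 tested in activation and glycerolipid synthesis, 3 fell and 2 rose (median log2 fold change 0.019). MBOAT7, which puts arachidonate into phosphatidylinositol, fell from 85.7 ± 2.07 to 74.0 ± 2.65 CPM (log2 change -0.21; edgeR adjusted p = 0.00137), and FABP5, a fatty acid binding protein, from 128 ± 8.90 to 110 ± 5.01 CPM (SD, n = 3 each). LPCAT2, a lysophospholipid acyltransferase, rose by 0.14 and AGPAT4, with a mean of 2.13 CPM in the controls and 3.26 CPM with SPNS2, by 0.60 on the log2 scale. AGPAT4 lost its call without control 2 or SPNS2 library 2 (adjusted p = 0.0564 and 0.0541), and in each of those fits 1 gene of the list rose. Of 20 genes of mitochondrial fatty acid oxidation, 5 fell and 2 rose (median -0.027). ECI1, an enoyl-CoA isomerase, fell from 78.6 ± 1.92 to 66.8 ± 4.18 CPM (SD, n = 3 each), HADHA, of the trifunctional protein, and ETFB, an electron carrier, each fell by 0.12, and ACADM, the medium-chain dehydrogenase, rose by 0.19 on the log2 scale. Leaving out SPNS2 library 1 took the call from ETFB (adjusted p = 0.0627). In that list 3 genes fell without control 3 or SPNS2 library 2, 2 fell without SPNS2 library 1, and 1 rose without control 2 or SPNS2 library 2 or 3.

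Cholesterol synthesis, which shares SREBP control, had a median log2 fold change of -0.060. Of 22 tested genes, 6 fell and 4 rose, beside 12.6% lower and 11.9% higher over all tested features. For features at a mean of at least 20 CPM the shares were 18.3% and 13.6%. FDPS, farnesyl diphosphate synthase, fell from 120 ± 2.49 to 105 ± 2.88 CPM (log2 change -0.19; edgeR adjusted p = 0.00133). IDI1, isopentenyl diphosphate isomerase, rose by 0.16 (178 ± 2.91 against 198 ± 8.40 CPM, SD over 3 libraries), and TM7SF2, a sterol reductase, rose by 0.16 on the log2 scale. Only 2 genes rose without control 1 or SPNS2 library 1 or 3, and 3 fell without SPNS2 library 3. The difference between the lists was not tested.

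**Figure D4:**
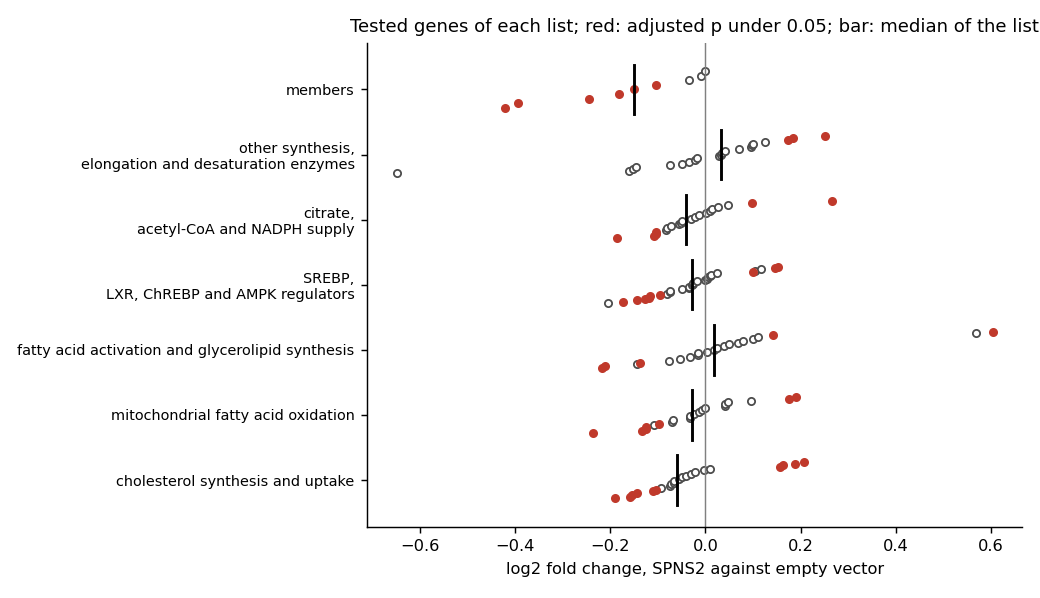
Log2 fold change of every tested gene of each list, SPNS2 against empty vector; red points passed an adjusted p of 0.05, open points did not, and the black bar is the median of the list. All 9 members lie at or below 0 (median -0.15; FADS2, at 0, turns to 0.0082 with library totals only), while each of the other 6 lists has genes on both sides of 0 and a median between -0.060 and 0.034.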

How the data were processed

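Per the labels' protocols, RNA came from a QIAGEN column kit and stranded mRNA libraries from a TruSeq kit. Estimated counts per gene were deposited as whole numbers, so nothing was rounded. The submitters' processing notes name Salmon; no version, genome build or annotation is given there. Symbols were matched by Ensembl ID without version, and 2 genes of the other lists are not analysed here.

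Counts were filtered with filterByExpr (minimum count 10, minimum total 15), scaled by TMM and tested with edgeR 4.0.16 (quasi-likelihood test, group as the only term) in R 4.3.3. P-values were Benjamini-Hochberg adjusted over all 13308 tested features, and 0.05 was the threshold. Standard errors were derived from the log2 fold change and its F statistic. The pipeline was tested on simulated counts. Replicate libraries differed beyond sampling noise (chi-square per degree of freedom 2.89 to 5.85). Limma 3.58.1 and DESeq2 1.42.0 were alternatives.

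The members and lists were chosen with earlier results of these data known. All members were named, with up to 4 called genes of smallest p per other list and 10 fixed genes (SREBF1, SREBF2, SCAP, INSIG1, MLXIPL, NR1H2, NR1H3, ACACB, SLC25A1 and ACSS2); EPCAM, CD3E, ME2, NFYB, PRKAG2, MLXIP and the changes of myeloid markers were named after their values were seen, and 1 gene that the rule covers is not reported here. The FADS2 to FADS1 ratio and the background at 20 CPM were added after seeing the data. Ratios were compared by exact permutation over libraries.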

Additional observations from a re-analysis of the deposited data

How the results depend on the processing

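ACLY, FASN, ELOVL6 and FADS1 kept their direction and call under every alternative run: other scaling, DESeq2, limma voom, other filters, the table without the vector row, the replicate block and each library left out. With single libraries left out, 4 to 6 members fell and 0 rose, and over all features 1167 to 1444 were lower and 1079 to 1294 higher. FADS2, which did not pass in any fit, had a positive log2 fold change with library totals only (0.0082), with a filter at 5 mean CPM (0.0053) and with the replicate block (7.32e-06), and ranged from -0.021 to 0.031 with single libraries left out. ELOVL1 ranged from -0.035 to 0.019 and SREBF1 from -0.045 to 0.0057 in the same way.

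With single libraries left out, the other enzymes of synthesis had 1 to 2 genes higher and 0 to 1 lower, citrate and NADPH supply 1 to 2 higher and 1 to 3 lower, regulators 0 to 3 higher and 2 to 5 lower, activation and glycerolipids 1 to 2 higher and 2 to 3 lower, oxidation 1 to 2 higher and 2 to 4 lower, and cholesterol synthesis 2 to 4 higher and 3 to 5 lower. These fits have fewer samples. DESeq2 called 1 gene higher among the other enzymes of synthesis, 1 among regulators and 1 in oxidation; the cause was not tested. At a mean CPM of at least 5, 1 gene of activation and glycerolipids was higher, as AGPAT4 was no longer tested.

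Same-numbered libraries of the 2 groups deviated together little (correlations of 0.0312, 0.0375 and -0.0193), so the numbers were not taken to pair them. With the replicate block 5 members fell, without ELOVL5 (adjusted p = 0.0656), 2 supply genes fell and 1 regulator rose. Calls over all features were also fewer with the block, at 1422 lower and 1301 higher, against 1683 and 1580 without it. Library totals in place of TMM shifted the median log2 fold change by 0.0090, and 53.6% of the calls over all features were then higher. Under the median transcript length, CPM per kilobase moved for 8 of the 10 members. The depth did not allow a difference in ME1 to be seen.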
